A study of Mus musculus with 12 samples.

Results

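The Notch receptors and their ligands were described across cultured astrocytes, the spheres made from them and 2 brain cell suspensions. The 9 genes were taken by name from a deposited expression table of 55862 mouse genes: the receptors Notch1, Notch2, Notch3 and Notch4, the Delta-like ligands Dll1, Dll3 and Dll4, and the Jagged ligands Jag1 and Jag2. Notch signalling passes between touching cells: a ligand on a cell binds a receptor on its neighbour, the receptor is cleaved, and its freed inner part enters the nucleus and switches on target genes together with the DNA-binding protein Rbpj. In the brain the pathway is known for keeping neural stem cells undifferentiated, while cells on their way to becoming neurons present Dll1 to their neighbours, and in blood vessels Dll4, Jag1 and Notch4 act between endothelial and mural cells.

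RNA of 12 mouse samples was sequenced, 3 in each of 4 groups, to ask what changes when astrocytes are grown as spheres. All are labelled C57BL/6, and the study's methods name the substrain C57BL/6J for both brain cell suspensions, so a difference of substrain from the cultures cannot be told apart from the group. Astrocytes (ASTs) were primary cells from the cerebral cortex of newborn pups, freed of meninges, grown as a monolayer in serum and taken at day 0. A-iSCs were such cells after 5 days as spheres on an agarose surface, to which they cannot attach, and no gene, RNA or protein was added. P56-NPCs were taken straight from the adult subependymal zone at postnatal day 56 as a suspension of cells. P0-NPCs were a like suspension of the newborn hippocampus at postnatal day 0. Both were labelled positive controls, they came from different regions and ages, and no sorting step is given for them in the sources used here. The labels do not say which samples came from separate cultures or animals, so p-values measure only the spread between these samples, which may be technical.

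Values are FPKM, fragments scaled for gene length and library size, which allow levels of different genes to be compared. Fragments counted on genes numbered 17077780 to 24452419 per sample, and 3 fragments on a gene of 1 kilobase equalled 0.103 to 0.187 FPKM. AST replicate 2 and A-iSC replicate 3 stood apart from their groups, and the results that changed with them are given with and without them. The marker lists showed mixed cells: all 7 astrocyte markers reached 1 FPKM in ASTs, but their sum was 121 to 136 FPKM against 1190 to 2420 in A-iSCs, while the 8 pericyte and smooth muscle markers summed to 1710 to 2140 in ASTs, mostly Acta2. P56-NPCs carried 10800 to 12300 FPKM of 6 oligodendrocyte markers, and P0-NPCs carried 896 to 1130 of 5 immature neuron markers and 86.8 to 92.1 of 8 endothelial markers. Summed over 6 neural progenitor markers, P56-NPCs and P0-NPCs had 105 to 132 and 146 to 158, against 357 to 379 in ASTs. In such bulk samples fewer cells of a type and less RNA per cell cannot be told apart.

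Between A-iSCs and ASTs the ligands Dll1 and Dll3 were higher and Jag1 was lower in A-iSCs, while Dll4 and Jag2 were not tested. Notch1, Notch2 and Notch3 did not pass with all samples, and Notch1 and Notch3 were called lower once the 2 samples that stood apart were left out. That choice, made after the data were seen, removed the AST lowest and the A-iSC highest in both genes, so a shift downward was built in. P0-NPCs had more RNA of most members than ASTs and less of Jag1, and P56-NPCs had less of each member than P0-NPCs. Of the latter differences, the calls of Notch4 and Jag1 were lost in most fits that left out a sample. Groups were compared 2 at a time with limma on log2(FPKM + 1), and a gene was tested where either group had a mean of at least 1 FPKM. A member that reached this in its higher group alone, as Dll3 did in A-iSCs against ASTs, had its direction fixed by this filter. Genes with a Benjamini-Hochberg adjusted p under 0.05, taken over all genes tested, are said to be called, higher or lower.

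Between A-iSCs and ASTs 6 of the 9 members were tested and 3 were called, where 54.8% of the 14087 genes tested were called. Notch4, Dll4 and Jag2 were too low in both groups to be tested. Between P56-NPCs and ASTs 7 were tested and 4 called, where 78.9% of genes were called, and between P0-NPCs and ASTs all 9 were tested and 8 called, where 79.0% were, 7 of them as higher in P0-NPCs, where 38.1% of genes were higher. These 3 comparisons share the AST samples. Between A-iSCs and P56-NPCs 4 of 7 were called, where 61.0% of genes were, and between A-iSCs and P0-NPCs 7 of 9 were called, where 65.1% were. The shares of members called were therefore near or below those of all genes in the comparisons of A-iSCs with ASTs, P56-NPCs with ASTs and A-iSCs with P56-NPCs. Between P56-NPCs and P0-NPCs, which the study did not set against each other, all 9 were called, where 78.8% of genes were, and all as lower in P56-NPCs, where 39.0% of genes were lower. The median log2 fold change of the 9 was -1.02 there, and that of all genes tested was 0.01. With single samples left out in turn 7 to 8 members were called, the calls lost being those of Notch4 and Jag1. Mitochondrial genes took 16.54% to 17.63% of the fragments in P56-NPCs and 3.67% to 5.55% in P0-NPCs. What part this had in the member values was not tested. Some members passed the filter through their higher group alone and so had to differ: Dll3 in the 3 comparisons with ASTs, Jag2 in the 4 comparisons of a cultured group with a suspension, and Notch4 and Dll4 in the 3 comparisons with P0-NPCs. The counts above include them and are a description.

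**Figure D1:**
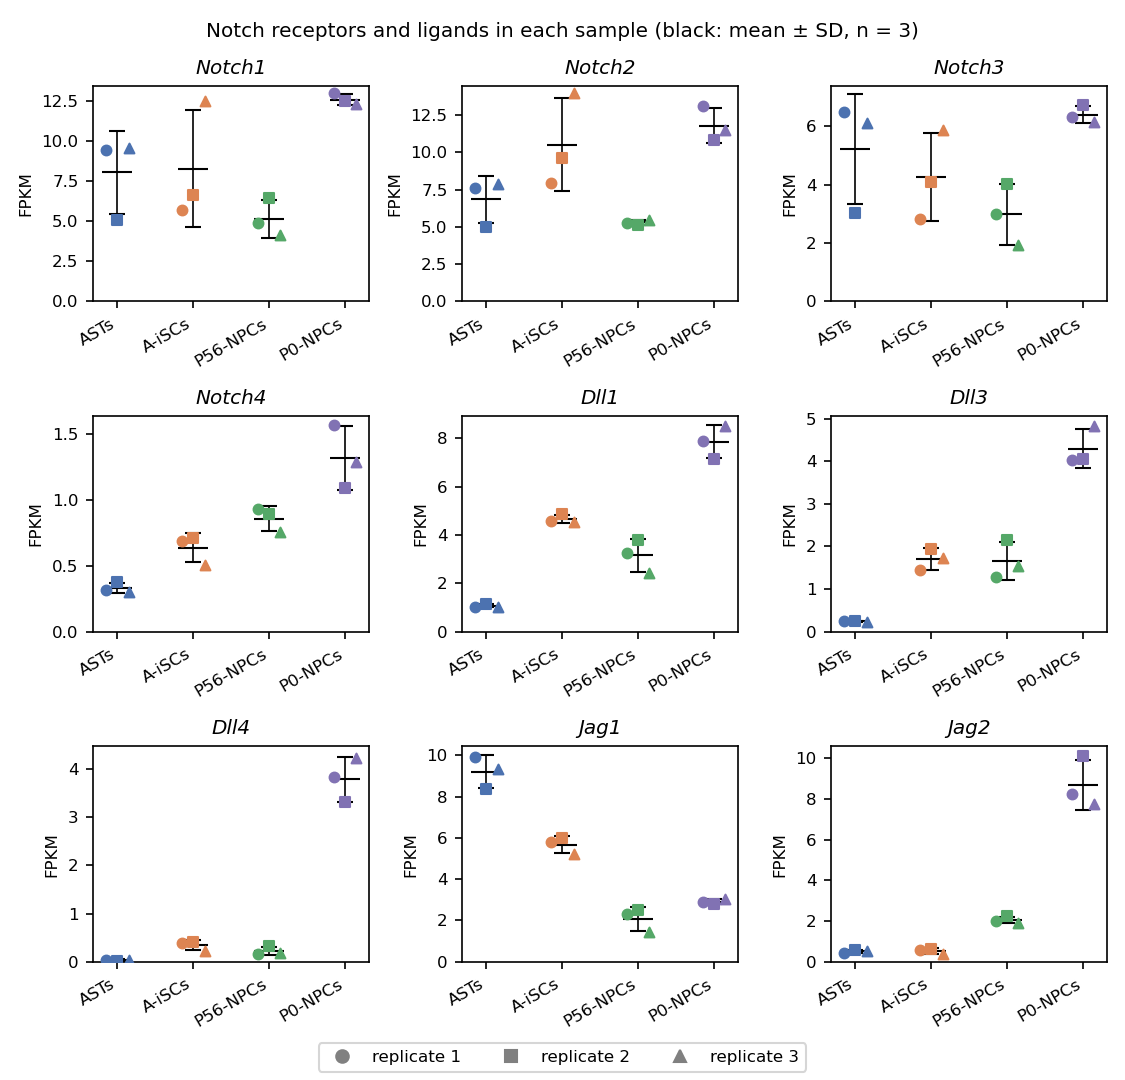
FPKM of the 9 members (y axis, a linear scale of its own in each panel) in the 3 samples of each group (x axis), with the group mean and SD in black. P0-NPCs had the highest mean of every member but Jag1, which was highest in ASTs at 8.37 to 9.93 FPKM.

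The promoter windows of the members were read from RefSeq, from 250 bases before to 50 bases after each gene's start (GRCm38.p6). All 9 members were found, with 10 windows in all because Dll1 has a pair of starts. The site known to be bound by Rbpj, GTGGGAA, was searched on both strands and lay in 6.38% of all 32851 windows and in 0 of the 10, and its core TGGGAA, which lies within it, in 25.6% and in 0 of the 10. Another motif, CAGCTG, an E-box that reads the same on both strands and is known to be bound by basic helix-loop-helix proteins, was searched after the sequences had been seen. It lay in 16.3% of all windows and in 3 of the 10, those of Dll1, Dll3 and Jag1. These are the 3 members that were called between A-iSCs and ASTs, Dll1 and Dll3 as higher and Jag1 as lower, while Notch4, Dll4 and Jag2 were not tested. The motif lay also in 7 of 37 other pathway genes with a window, of which Lfng and Nrarp were called between A-iSCs and ASTs, Adam17, Ctbp1 and Kat2b were not, and Egfl7 and Maml3 were not tested. The 30 bases around each match in the members are shown, 5′ to 3′ on the gene's strand, with the motif in capitals.
Dll1: tgcattaccataCAGCTGagcgcacaaaga
Dll3: tccggcatccagCAGCTGcgactcctgaga
Jag1: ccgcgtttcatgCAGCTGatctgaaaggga
The stretch of Dll1 lies at chr17:15377047-15377076 on the minus strand, where the motif begins 132 bases before the RefSeq start, in an exon of A930024N18Rik by GENCODE M21. That of Dll3 lies at chr7:28301775-28301804 on the minus strand, 7 bases before the start, and that of Jag1 at chr2:137116585-137116614 on the minus strand, 82 bases before it. By GENCODE M21 both lie in the untranslated part of an exon of their own gene, since some transcripts there start further upstream. A match says only that the letters are there, and binding was not measured.

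Among the receptors, Notch1 and Notch2 were the most abundant in every group. Notch1 (ENSMUSG00000026923, chr2:26457903-26516663, minus strand) is the receptor best known from neural stem cells. It had 9.47, 5.08 and 9.60 FPKM in the 3 ASTs, 5.73, 6.65 and 12.5 in A-iSCs, 4.89, 6.47 and 4.13 in P56-NPCs, and 13.0, 12.5 and 12.3 in P0-NPCs. ASTs and A-iSCs overlapped, with AST replicate 2 low and A-iSC replicate 3 high, and every P0-NPC sample was above every AST and P56-NPC sample. The log2 fold change of A-iSCs over ASTs was 0.01 (95% interval -0.73 to 0.76; adjusted p = 0.972). P0-NPCs were above ASTs by 0.63 ± 0.20 (SE; limma adjusted p = 0.0213), a call that was lost when any single P0-NPC sample was left out (adjusted p = 0.0576 to 0.0639), with no filter (adjusted p = 0.0561) and with all 4 groups in the model (adjusted p = 0.0502). Without AST replicate 2 the difference was 0.37 (adjusted p = 0.00135). P0-NPCs were above P56-NPCs by 1.16 (adjusted p = 9.14e-05). In the order P0-NPCs, A-iSCs, ASTs and P56-NPCs no pair of neighbours passed the test.

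Notch2 (ENSMUSG00000027878, chr3:98013527-98150361, plus strand) is a second widely expressed receptor. It had 7.63, 5.00 and 7.88 FPKM in ASTs, 7.91, 9.64 and 14 in A-iSCs, 5.29, 5.14 and 5.45 in P56-NPCs, and 13.1, 10.8 and 11.5 in P0-NPCs. All A-iSC samples were above all ASTs, though the lowest A-iSC sample exceeded the highest AST only narrowly. The log2 fold change of 0.54 (95% interval -0.00 to 1.09) did not pass the test (adjusted p = 0.0839), and it was 0.15 (adjusted p = 0.223) without AST replicate 2 and A-iSC replicate 3. It passed without A-iSC replicate 1 (0.71, adjusted p = 0.0476), with scaling by the total of fragments (0.74, adjusted p = 0.037), with all 4 groups in the model (adjusted p = 0.0265) and with a replicate block (adjusted p = 0.0334). A-iSCs were above P56-NPCs by 0.84 ± 0.19 (SE; adjusted p = 0.00655), or 0.63 without A-iSC replicate 3 (adjusted p = 0.00101), and differed from P0-NPCs by -0.18 (95% interval -0.63 to 0.27). P0-NPCs were above ASTs by 0.72 (adjusted p = 0.00338), or 0.54 without AST replicate 2 (adjusted p = 0.00129).

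The ratio of Notch2 to Notch1 within a sample is free of the scaling between samples. It was 0.806 to 0.983 in ASTs and 1.12 to 1.45 in A-iSCs, so the ranges of these groups did not overlap although neither gene was called. In P56-NPCs it was 0.795 to 1.32, which overlaps both, and in P0-NPCs it was 0.864 to 1.01. This ratio was picked after the values had been seen and was not tested.

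Notch3 (ENSMUSG00000038146, chr17:32120820-32166852, minus strand) is known as the receptor of vascular mural cells and is also made by neural stem cells. It had 6.5, 3.04 and 6.13 FPKM in ASTs, 2.83, 4.10 and 5.86 in A-iSCs, 3.01, 4.02 and 1.93 in P56-NPCs, and 6.32, 6.72 and 6.15 in P0-NPCs. The first 3 groups overlapped, and P0-NPCs were tightly placed above all A-iSC and P56-NPC samples. A-iSCs differed from ASTs by -0.23 (95% interval -0.92 to 0.46). Of the 8 pericyte and smooth muscle markers 5 had a lower mean in A-iSCs, among them Acta2 (1850 to 41.6 FPKM) and Pdgfrb (11.1 to 2.79), and 3 had a higher one, Rgs5 (0.311 to 0.699), Kcnj8 and Abcc9. Their sum of 1710 to 2140 FPKM in ASTs and 31.7 to 64.4 in A-iSCs was mostly Acta2, and the part of such cells in the values of Notch3 was not tested. P56-NPCs differed from P0-NPCs by -0.93 (adjusted p = 0.00184), and A-iSCs differed from P0-NPCs by -0.53 (adjusted p = 0.0475), a call lost when any single sample but A-iSC replicate 3 was left out (adjusted p = 0.0996 to 0.13), with the difference at -0.32 without A-iSC replicate 1.

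Notch4 (ENSMUSG00000015468, chr17:34564268-34588503, plus strand) is known from endothelial cells. It was the lowest receptor in every group, at 0.318, 0.373 and 0.301 FPKM in ASTs, 0.689, 0.710 and 0.509 in A-iSCs, 0.929, 0.889 and 0.753 in P56-NPCs, and 1.57, 1.09 and 1.29 in P0-NPCs. The 4 groups did not overlap, in this order from low to high. Only comparisons with P0-NPCs could be tested: they were above ASTs by 0.79 (adjusted p = 0.000213), above A-iSCs by 0.50 (adjusted p = 0.00893) and above P56-NPCs by 0.31 (adjusted p = 0.0286), the last lost in 4 of the 6 fits that left out a sample (adjusted p = 0.0523 to 0.0958). In these comparisons Notch4 passed the filter through P0-NPCs alone, so its direction was fixed by the filter. With no filter on low values A-iSCs differed from ASTs by 0.30 (adjusted p = 0.042). The 8 endothelial markers summed to 4.86 to 5.51 FPKM in ASTs, mostly Cdh5 and Esam, 0.606 to 1.34 in A-iSCs, 4 to 4.77 in P56-NPCs and 86.8 to 92.1 in P0-NPCs. Between ASTs and A-iSCs the means of Pecam1 and Cldn5 were higher in A-iSCs and those of the other 6 lower, and the part of endothelial cells in the values of Notch4 was not tested.

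The members were compared with their own group sample by sample. On the scale of log2(FPKM + 1), Notch1, Notch2 and Notch3 differed by -0.79, -0.55 and -0.86 between AST replicate 2 and the mean of the other ASTs, and by 0.91, 0.62 and 0.63 between A-iSC replicate 3 and the other A-iSCs. A-iSC replicate 1 lay on the other side of its group, at -0.59, -0.50 and -0.62, and in P56-NPCs Notch3 ranged from -0.62 in replicate 3 to 0.55 in replicate 2. Genes of at least 8000 bases, a class that holds all 4 receptors and none of the ligands, had a median difference of -0.15 in AST replicate 2 and 0.21 in A-iSC replicate 3, against 0.18 and -0.17 for genes under 2000 bases. Genes with at least 55% of bases G or C, a class that holds every member but Notch2 and Jag1, had 0.05 and -0.17. Mitochondrial genes took 4.7% of the fragments of AST replicate 2 against 2.94% and 3.17% in the other ASTs, and 3.05% of those of A-iSC replicate 3 against 7.03% and 5.49%. Notch4 and the ligands moved little or the other way in these samples, with differences of -0.18 to 0.11 in AST replicate 2 and -0.23 to 0.03 in A-iSC replicate 3. What part gene length, base content or RNA quality had in the receptor values was not tested.

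**Figure D2:**
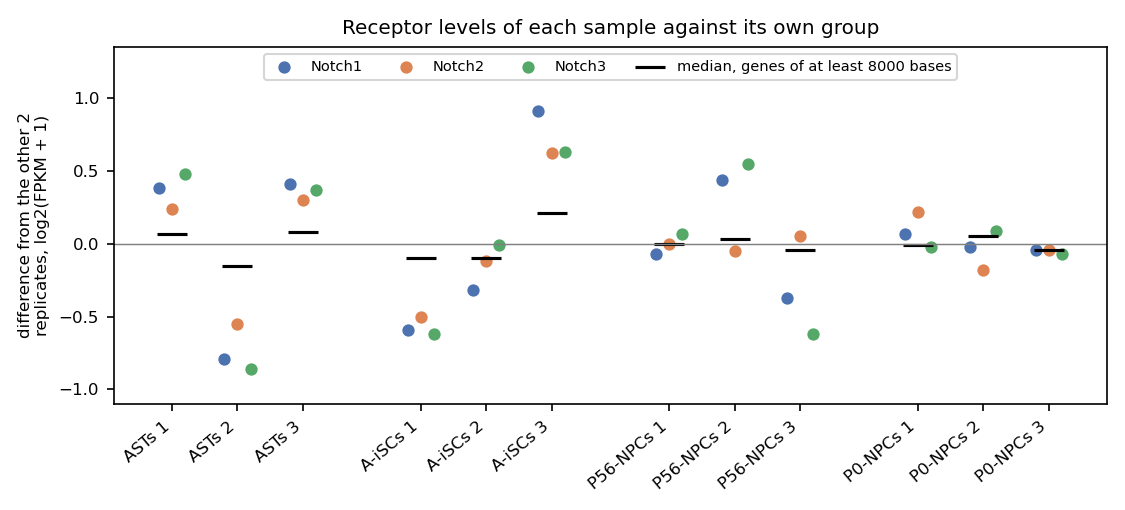
Difference of Notch1, Notch2 and Notch3 in each sample (x axis) from the mean of the other 2 samples of its group (y axis, log2(FPKM + 1)), with the median over genes of at least 8000 bases as a black dash. The 3 receptors sat at -0.55 to -0.86 in AST replicate 2 and at 0.62 to 0.91 in A-iSC replicate 3.

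Without both samples, a choice made after the data were seen, 5 of the 6 members tested between A-iSCs and ASTs were called, where 73.0% of genes were. Notch1 and Notch3 were then called lower in A-iSCs, at log2 fold changes of -0.55 and -0.73 (adjusted p = 0.00273 and 0.00773). Among the ASTs replicate 2 had the lowest values of Notch1, Notch2 and Notch3, and among the A-iSCs replicate 3 had the highest. Leaving out either therefore had to lower the differences of these receptors given here. A-iSC replicate 1, which lay on the other side of its group, was kept. The ligands hardly moved: Dll1 was at 1.49 (adjusted p = 8.93e-05), Dll3 at 1.12 (adjusted p = 0.00112) and Jag1 at -0.62 (adjusted p = 0.000824). For P56-NPCs against ASTs, leaving out AST replicate 2 alone gave calls for Notch1 at -0.79 (adjusted p = 0.00355), Notch2 at -0.48 (adjusted p = 0.000325) and Notch3 at -0.91 (adjusted p = 0.00842), where with all samples they had -0.53, -0.29 and -0.62 and adjusted p-values of 0.0814, 0.113 and 0.0792. Without A-iSC replicate 3, Notch1 differed between A-iSCs and P0-NPCs by -0.92 (adjusted p = 6.15e-05) and Notch2 by -0.39 (adjusted p = 0.0172).

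By mean FPKM each Delta-like ligand was highest in P0-NPCs, then in A-iSCs, P56-NPCs and ASTs, though A-iSCs and P56-NPCs overlapped for Dll3 and Dll4. Dll1 (ENSMUSG00000014773, chr17:15367354-15376872, minus strand) is the main activating ligand of committed neural progenitors. It had 1.03, 1.15 and 1.03 FPKM in ASTs, 4.59, 4.87 and 4.52 in A-iSCs, 3.25, 3.78 and 2.43 in P56-NPCs, and 7.89, 7.16 and 8.52 in P0-NPCs. The 4 groups did not overlap, and AST replicate 2 and A-iSC replicate 3 lay with the others of their groups. A-iSCs were 4.35 times ASTs in mean FPKM. The difference of log2(FPKM + 1), which is smaller than the log of that ratio, was 1.45 ± 0.10 (SE; adjusted p = 2.78e-05) and stayed at 1.42 to 1.48 when samples were left out in turn. P0-NPCs were above A-iSCs by 0.64 (adjusted p = 0.00105), and P56-NPCs were above ASTs by 0.99 (adjusted p = 0.000252). A-iSCs were above P56-NPCs by 0.46 (adjusted p = 0.0219), which was lost in 4 of the 6 fits that left out a sample (adjusted p = 0.0506 to 0.068).

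Dll3 (ENSMUSG00000003436, chr7:28293553-28302238, minus strand) is a divergent ligand that stays mostly inside the cell and dampens Notch signalling in the cell that makes it. It had 0.251, 0.242 and 0.227 FPKM in ASTs, 1.44, 1.95 and 1.74 in A-iSCs, 1.29, 2.16 and 1.53 in P56-NPCs, and 4.02, 4.05 and 4.83 in P0-NPCs. ASTs rested on 12 to 14 fragments a sample and were far below all other samples, A-iSCs and P56-NPCs overlapped, and P0-NPCs were above all. The log2 fold change was 1.12 ± 0.12 (SE; adjusted p = 0.0002) for A-iSCs over ASTs and 0.03 (95% interval -0.32 to 0.38) for A-iSCs over P56-NPCs, and -0.97 for A-iSCs over P0-NPCs (adjusted p = 0.000261). Against ASTs Dll3 passed the filter through A-iSCs alone, so its direction there was fixed by the filter. At this low level the added 1 shrinks the change: A-iSCs were 7.13 times ASTs in mean FPKM, and the log2 fold change over ASTs was 2.4 with a pseudocount of 0.1 and 2.78 by limma-voom, against 2.02 and 2.11 for Dll1. The ratio of Dll1 to Dll3 within a sample was 4.11 to 4.73 in ASTs, 2.5 to 3.17 in A-iSCs, 1.59 to 2.51 in P56-NPCs and 1.76 to 1.96 in P0-NPCs, a description with no test.

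Dll4 (ENSMUSG00000027314, chr2:119325784-119335962, plus strand) is the ligand of sprouting and arterial endothelial cells. It was at 0.0464, 0.0256 and 0.0419 FPKM in ASTs, from 3, 2 and 3 fragments, at 0.399, 0.415 and 0.223 in A-iSCs, at 0.165, 0.323 and 0.173 in P56-NPCs, and at 3.82, 3.3 and 4.23 in P0-NPCs. P0-NPCs stood alone, while A-iSCs and P56-NPCs overlapped well above ASTs. From the summed fragments, 1156 in P0-NPCs and 8 in ASTs, the ratio was 101 with an exact 95% interval of 51.1 to 235, and from 92 fragments in A-iSCs it was 9.05 with an interval of 4.41 to 21.6, both for counting error only. P0-NPCs were above A-iSCs by 1.83 on the log2(FPKM + 1) scale (adjusted p = 1.04e-05). Dll4 passed the filter there through P0-NPCs alone, so its direction was fixed by the filter. All 8 endothelial markers had their highest mean in P0-NPCs, such as Cldn5 at 50.8 FPKM and Cdh5 at 10.1. With no filter Dll4 was higher in A-iSCs than in ASTs by 0.37 (adjusted p = 0.00743), where Pecam1 went from 0.0541 to 0.205 FPKM and Cdh5 from 2.28 to 0.156. The part of endothelial cells in the values of Dll4 was not tested. A long noncoding RNA on the opposite strand, Gm14207, overlaps the start of Dll4 and had a mean of 1.5 FPKM in P0-NPCs. Whether the counting used strand is not given in the sources used here, so reads of the overlap cannot be told apart.

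The Jagged ligands had their highest levels in different groups, Jag1 in ASTs and Jag2 in P0-NPCs. Jag1 (ENSMUSG00000027276, chr2:137081456-137116644, minus strand), a ligand of astrocytes, endothelial and smooth muscle cells, had 9.93, 8.37 and 9.33 FPKM in ASTs, 5.81, 6.01 and 5.20 in A-iSCs, 2.31, 2.53 and 1.42 in P56-NPCs, and 2.90, 2.78 and 3.04 in P0-NPCs. It was the only member with its highest level in ASTs, and all 4 groups were apart. A-iSCs were at 0.616 times the AST mean, and the log2 fold change of -0.61 ± 0.11 (SE; adjusted p = 0.00297) ranged from -0.67 to -0.56 when samples were left out in turn. P56-NPCs differed from ASTs by -1.74 (adjusted p = 3e-05) and P0-NPCs by -1.38 (adjusted p = 2.96e-06). A-iSCs were above P56-NPCs by 1.13 (adjusted p = 0.000709) and above P0-NPCs by 0.77 (adjusted p = 0.000367). P56-NPCs and P0-NPCs differed by -0.36 (adjusted p = 0.0492), a call lost in 5 of the 6 fits that left out a sample (adjusted p = 0.0569 to 0.123; -0.19 without P56-NPC replicate 3) and with the replicate number as a block (adjusted p = 0.0601). The 8 pericyte and smooth muscle markers summed to 18.5 to 28.9 FPKM in P56-NPCs and 58.7 to 68.4 in P0-NPCs, and did not move together: Acta2 and Tagln had their highest mean in ASTs, while Rgs5, Kcnj8 and Abcc9 had their lowest in ASTs and their highest in P0-NPCs. The part of such cells in the Jag1 values was not tested.

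Jag2 (ENSMUSG00000002799, chr12:112907819-112929776, minus strand), the second Jagged ligand, had 0.437, 0.588 and 0.510 FPKM in ASTs, 0.563, 0.640 and 0.364 in A-iSCs, 2.02, 2.23 and 1.93 in P56-NPCs, and 8.24, 10.1 and 7.74 in P0-NPCs. The cultured groups overlapped and both brain suspensions were above them without overlap. A-iSCs and ASTs could not be tested at the filter, and without it they differed by 0.01 (adjusted p = 0.962). P56-NPCs were above ASTs by 1.02 (adjusted p = 2.27e-05) and P0-NPCs by 2.68 (adjusted p = 3.3e-07). The log2 difference was -1.01 for A-iSCs over P56-NPCs (adjusted p = 0.000236) and -2.67 for A-iSCs over P0-NPCs (adjusted p = 2.47e-06). In each of these comparisons Jag2 passed the filter through the suspension alone, so its direction was fixed by the filter. Beside it, the 7 neuron markers summed to 6.22 to 7.51 FPKM in ASTs, 11.4 to 16.3 in A-iSCs, 145 to 176 in P56-NPCs and 86.3 to 109 in P0-NPCs. The 5 immature neuron markers summed to 87.4 to 125 in ASTs, 41.8 to 64.7 in A-iSCs, 94.8 to 115 in P56-NPCs and 896 to 1130 in P0-NPCs. In ASTs the neuron sum was mostly Map2 (mean 6.25 FPKM) and the immature neuron sum mostly Stmn2 and Tubb3. From ASTs to A-iSCs the means went from 53.8 to 7.16 for Stmn2, 40.7 to 37.8 for Tubb3 and 6.4 to 6.3 for Sox11. Those of Neurod1 went from 0.186 to 0.0227, and those of Dcx rose from 0.0833 to 2.86. The part of neurons in the Jag2 values was not tested.

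**Figure D3:**
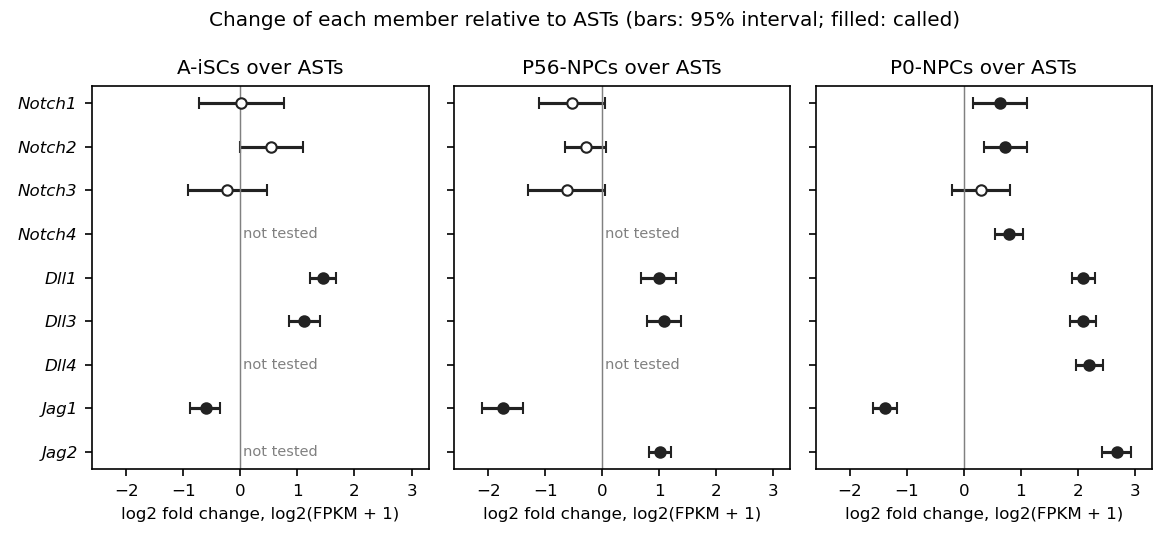
Log2 fold change of each member over ASTs on the log2(FPKM + 1) scale (x axis) in A-iSCs, P56-NPCs and P0-NPCs, with 95% intervals and filled points where called; members too low to be tested are written as such. Dll1 and Dll3 were to the right of 0 and Jag1 to the left in all 3 panels, which share the AST samples, while the receptors of A-iSCs and P56-NPCs spanned 0.

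The make-up of the ligand RNA differed between groups more than its total did between the first 3. Summed ligand FPKM was 10.4 to 11.7 in ASTs, 12 to 13.9 in A-iSCs, 7.48 to 11.0 in P56-NPCs and 26.9 to 28.4 in P0-NPCs. Jag1 made up 80.7% to 84.9% of it in ASTs, 43.2% to 45.4% in A-iSCs, 18.9% to 25.6% in P56-NPCs and 10.1% to 10.8% in P0-NPCs. Dll1 made up 8.82% to 11.0%, 35.1% to 37.5%, 32.5% to 36.0% and 26.1% to 30% in the same order. The mean ratio of Dll1 to Jag1 within a sample was 0.117 in ASTs, 0.823 in A-iSCs, 1.54 in P56-NPCs and 2.70 in P0-NPCs, with no overlap between groups. Jag2 took 20.2% to 25.7% in P56-NPCs and 27.3% to 36.9% in P0-NPCs but at most 5.67% in the cultured groups. Dll4 took 12% to 14.9% in P0-NPCs and at most 3.12% elsewhere.

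Within each group the order of the ligands by mean FPKM was Jag1, Dll1, Jag2, Dll3, Dll4 in ASTs and Jag1, Dll1, Dll3, Jag2, Dll4 in A-iSCs, and both orders were the same when any sample was left out. In P56-NPCs Dll1 led in each case, and Jag1 and Jag2 swapped places without replicate 1 or replicate 2. In P0-NPCs Jag2 led, or Dll1 without replicate 2, and Jag1 was last. For the receptors the make-up moved less: Notch3 took 22.5% to 27.2% of the summed receptor FPKM in ASTs and 16.5% to 19.4% in A-iSCs, and Notch2 took 31.9% to 37.0% and 42.6% to 46.1%. The summed receptor FPKM was 13.5 to 23.9 in ASTs, 17.2 to 32.9 in A-iSCs, 12.3 to 16.5 in P56-NPCs and 31.0 to 34.0 in P0-NPCs.

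**Figure D4:**
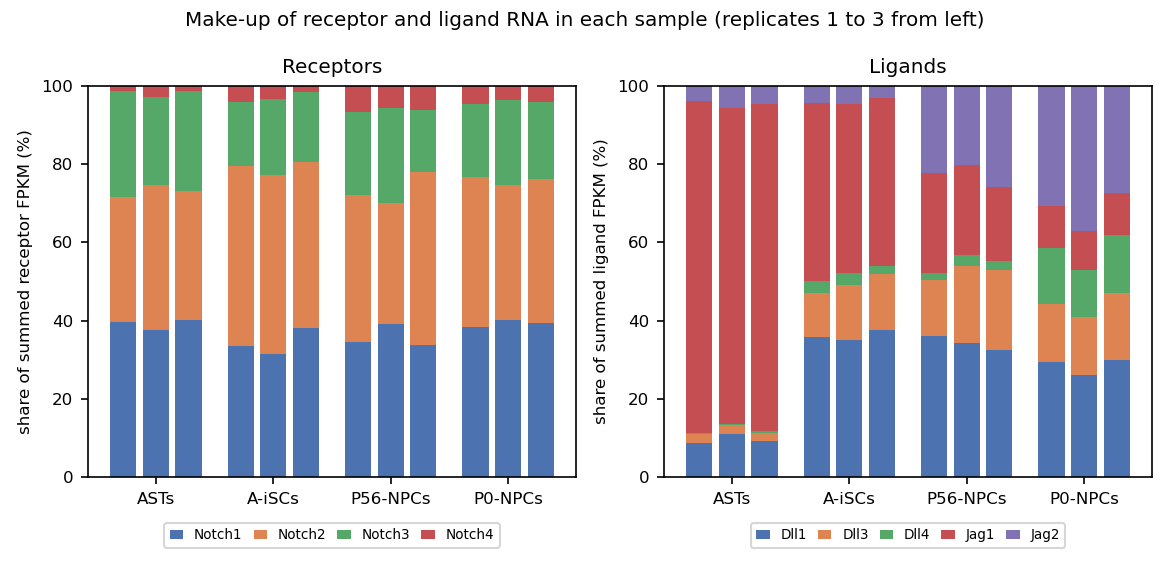
Share of each receptor in the summed receptor FPKM and of each ligand in the summed ligand FPKM (y axes, percent) in each sample, ordered by group and replicate (x axes). Jag1, in red, made up 80.7% to 84.9% of ligand FPKM in ASTs and 10.1% to 10.8% in P0-NPCs, while the receptor shares stayed closer together.

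A list of 49 other genes of the pathway was then described by role. Between A-iSCs and ASTs 43 were tested, 11 were higher and 7 lower, or 41.9% called, against 54.8% of all genes. Without AST replicate 2 and A-iSC replicate 3 the 18 genes were called in the same directions and 12 more were added, for 12 higher and 18 lower, where 73.0% of all genes were called. Under upper-quartile scaling 12 genes of the list came out lower and 11 higher. Mfng, Aph1c, Nrarp and Hes5 passed the filter through A-iSCs alone, so their direction was fixed by it. Among 5 enzymes that put sugars on the receptors, the 3 Fringe enzymes, which tune the response to Delta against Jagged ligands, were all higher: Mfng by 2.09 (0.199 ± 0.118 to 4.11 ± 0.65 FPKM, SD, n = 3), Rfng by 0.78 and Lfng by 0.70 (limma adjusted p = 2.51e-05, 0.00874 and 0.021), where 25.2% of all genes were higher. Beside them, the 6 microglia markers summed to 21.2 to 26.4 FPKM in ASTs and 201 to 265 in A-iSCs, whose part in these values was not tested. Pofut1 and Poglut1, which add the first sugars, had -0.20 and -0.35 and were not called, but were lower without both samples, at -0.41 and -0.73 (adjusted p = 0.00364 and 0.000409). Of the ubiquitin ligases that let ligands be taken up, Mib2 was higher by 0.90 (adjusted p = 0.000862) and Mib1 had 0.28 (adjusted p = 0.342).

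Of 10 cleavage enzymes, the gamma-secretase subunits Aph1c (1.25) and Psen2 (0.75) were higher and Ncstn (-0.80) and Aph1a (-0.49) lower in A-iSCs than in ASTs, and the other 6 were not called. Without both samples Adam10 (-0.85), Furin (-0.52) and Aph1b (-0.46) were lower as well and Psenen (0.75) higher. Aph1b and Aph1c are near-identical copies, so the share of reads between them is uncertain. The 7 nuclear activators tested did not pass, with adjusted p-values from 0.0864 for Maml2 to 0.88 for Kat2a, and Rbpj, the DNA-binding partner of cleaved Notch, had -0.19 (adjusted p = 0.417). Without both samples Rbpj (-0.50, adjusted p = 0.00422), Maml1 (-0.33) and Snw1 (-0.24) were called lower. Of the 4 nuclear repressors Hdac1 was lower (-0.57), and without both samples Spen (-0.49) was too. Among inhibitors and modulators, Dtx3 (1.13), Dtx1 (1.06), Nrarp (0.74) and Dtx4 (0.72) were higher and Fbxw7, which marks cleaved Notch for breakdown, was lower (-0.52), and without both samples Numbl was too (-0.21). Of these Nrarp, a known target and feedback inhibitor of Notch, was at 0.515 ± 0.121 FPKM in ASTs and 1.64 ± 1.01 in A-iSCs (SD, n = 3; adjusted p = 0.0409). The non-canonical ligands Dlk2 and Dner were lower, at -2.73 and -1.86 (adjusted p = 1.93e-05 and 2.56e-05), and Dlk1 was listed at 0 in both groups. Of the target repressors Hes5 was higher, at 2.59, and Hes1 lower, at -2.26 (adjusted p = 4.2e-05 and 0.000446), while Hey1 and Hey2 were not called.

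Against ASTs, P56-NPCs had 19 of the 47 list genes tested higher and 20 lower, or 83.0% called against 78.9% of all genes, and P0-NPCs had 21 of 47 higher and 19 lower, or 85.1% against 79.0%. A-iSCs had 14 higher and 15 lower of 47 tested against P56-NPCs, or 61.7% against 61.0%, and 12 higher and 16 lower of 48 against P0-NPCs, or 58.3% against 65.1%. P56-NPCs had 20 higher and 19 lower of 48 against P0-NPCs, or 81.2% against 78.8%. With scaling by the total of fragments these splits moved, to 27 higher and 9 lower for A-iSCs over P56-NPCs, 7 and 33 for P56-NPCs over P0-NPCs, 15 and 24 for P56-NPCs over ASTs, and 14 and 5 for A-iSCs over ASTs. Those of all genes were 8333 and 2860, 3441 and 9432, 4578 and 7561, and 4566 and 2990 in the same order. Against ASTs 8 of the list genes passed the filter through P56-NPCs alone and 8 through P0-NPCs alone, Neurl1a and Neurl1b in both, and all were called higher. Between A-iSCs and P56-NPCs 4 passed through P56-NPCs alone, 3 of them called lower, and between A-iSCs and P0-NPCs 5 passed through P0-NPCs alone and were lower, and Aph1c passed through A-iSCs alone and was higher. Between P56-NPCs and P0-NPCs Aph1c and Egfl7 passed through 1 group. The shares and role counts here include these genes. The roles hold few genes, and their counts are a description with no test. All 4 ligand ubiquitin ligases were higher in P56-NPCs and in P0-NPCs than in ASTs, led by Neurl1a at 5.17 in P56-NPCs (0.123 to 39.4 FPKM) and 1.72 in P0-NPCs, where 39.1% and 38.1% of all genes were higher. Of the cleavage enzymes 7 of 10 were lower in P56-NPCs than in ASTs and 8 of 9 in P0-NPCs, led by Ncstn at -1.95 and by Adam10, which makes the first cut, at -1.26, where 39.8% and 40.9% of all genes were lower. In A-iSCs 6 of the 10 cleavage enzymes were higher than in P56-NPCs, led by Ncstn at 1.15, and 6, Aph1c included, were higher than in P0-NPCs, led by Psen2 at 1.63, where 30.1% and 31.5% of all genes were higher. Nrarp differed by -2.39 between A-iSCs and P56-NPCs and by -1.58 between A-iSCs and P0-NPCs (adjusted p = 0.000221 and 0.000762), and Dtx1 by -1.37 in each (adjusted p = 0.000122 and 2.3e-05).

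For each member the 3 protein-coding genes outside the family with the closest pattern over the 12 samples were found, after centring each gene's log2(FPKM + 1) on its own mean, by the root mean square of the remaining differences. For Notch1 these were Erc1, Tmem131 and Gtf3c4 (0.16 to 0.19), for Notch2 Med22, Etaa1 and Rnf145 (0.14 to 0.18), and for Notch3 Tmem131, Dync1h1 and Cnot1 (0.15 to 0.19). Dll1 was closest to Chd7, Dclk2 and Iglon5 (0.15 to 0.20), Dll3 to Zscan2, Ulk1 and Ccdc166 (0.16 to 0.19), Jag1 to Nav2, Tpp2 and Tnfrsf22 (0.16 to 0.17) and Jag2 to Camsap3, Tenm2 and Cacna1b (0.09 to 0.11). Notch4 and Dll4 were closest to Slc2a4, Brwd1 and Ccdc138 (0.08 to 0.09) and to Nkd2, Zfp711 and Ccdc120 (0.11 to 0.12), where low levels make small differences easy to reach. These are descriptions over samples that share groups and libraries.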

How the data were processed

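The authors deposited 1 table of FPKM per gene and sample, with the gene length in bases. Per the study's methods, paired ends of NEBNext Ultra libraries were read on an Illumina HiSeq. The submitters' processing notes name Bowtie 0.12.2 and mm8, but of 55154 genes shared with GENCODE M21, 54899 had the same GRCm38 position. The counter is not given in the sources used here. FPKM times gene length came out as whole fragments (tolerance 0.05) for 100% of values under 1000 fragments, and the library size behind the FPKM was 0.744 to 1.218 times the fragments counted, so a scaling between samples was already present. Fragments carry no molecular identifiers, so floors and intervals cover counting error only.

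limma 3.58.1 (R 4.3.3; lmFit, eBayes with trend) was run on log2(FPKM + 1), a scale that understates changes of low genes. Python 3.11.15 with pandas 2.3.3, scipy 1.17.1 and matplotlib 3.10.9 did the rest. The fit was tested on simulated data. Members, lists and tests were chosen with earlier results of these data known. Named genes were all members, called list genes by role with the largest changes first, and the 3 closest genes per member. Alternatives were other scalings, a pseudocount of 0.1, no filter, all 4 groups in 1 model, a replicate block, limma-voom on fragments, and leaving out samples.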

Additional observations from a re-analysis of the deposited data

How the results depend on the processing

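Counts of members called moved by over 1.5 times in these cases. Between A-iSCs and ASTs 3 became 5 with no filter (28.3% of genes called) and 6 with all 4 groups in the model (57.8%), and both of these tested all 9 members in place of 6. The 3 also became 5 without AST replicate 2 and A-iSC replicate 3 (73.0% of genes called), a choice made after the data were seen. There the pathway list went from 18 to 30 (15 to 21 with single samples left out). Between P56-NPCs and ASTs 4 became 7 with upper-quartile scaling (80.1% of genes called), with scaling by the total of fragments (82.8%) and without AST replicate 2 (82.7%; 4 to 7 over all samples left out in turn), the 3 added being Notch1, Notch2 and Notch3. Between A-iSCs and P56-NPCs 4 became 7 with scaling by the total of fragments (75.1% of genes called), which itself moved the median of all genes to 0.49 from 0.03 and the share of higher calls to 74.4% from 49.4%. That scaling put the median at -0.53 between P56-NPCs and P0-NPCs, where all 9 members were still lower. The sign of Notch1 between A-iSCs and ASTs turned from 0.01 to -0.08 with upper-quartile scaling, to -0.55 without both samples, and ranged from -0.29 to 0.21 over samples left out in turn. That of Dll3 between A-iSCs and P56-NPCs ranged from -0.07 to 0.17 around 0.03. The causes were not tested. Of the other member fold changes under alternatives, 559 kept their direction and call, 22 gained a call and 30 lost one. Same-numbered ASTs and A-iSCs had residual correlations across genes of -0.38, 0.34 and 0.43, which cannot tell whether the numbers pair the samples. With a replicate block 4 members were called between A-iSCs and ASTs, Notch2 added at 0.54 (limma adjusted p = 0.0334), and Notch1 was called between A-iSCs and P0-NPCs (adjusted p = 0.0497). Called changes of low members were over 1.5 times larger with a pseudocount of 0.1 and by limma-voom, such as 2.4 and 2.78 for Dll3 in A-iSCs over ASTs (1.12 as reported), 1.71 and 1.95 for Notch4 in P0-NPCs over ASTs (0.79) and 4.81 and 6.43 for Dll4 there (2.2). With scaling by the total of fragments Dll1 in A-iSCs over P56-NPCs was 0.89 (0.46). Depth limited Dll4 in ASTs, at 2 to 3 fragments, while the filter of 1 FPKM left low members untested.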
